A study of Mus musculus with 22 samples.

Results

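Ctse, Nnt, Csad and Clec16a are 4 genes that lie outside the MHC and whose probe sets differed between livers of SOCS1-/-IFNg-/- mice and livers of IFNg-/- mice in most conditions of an interferon-gamma time course. They were chosen by their measured genotype difference in these same arrays, and they are 4 of 8251 genes measured. Each was found by its symbol in the platform's probe table, among probe sets with 1 symbol, and is given by the probe set with the highest mean over the 22 arrays. The size of that difference is therefore described below without a p-value, and a call of these genes in the genotype contrast follows from the choice. For Ctse, the set so chosen and the plain set of the same gene disagree, as described below.

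Livers came from SOCS1-/-IFNg-/- mice, which lack the cytokine interferon-gamma and also its feedback inhibitor SOCS1, and from IFNg-/- mice, which lack the cytokine alone. All mice, controls included, thus lacked their own interferon-gamma. Mice of either genotype received 4 µg of recombinant interferon-gamma in 100 µl into the abdominal cavity, and livers were taken 0.5, 1, 2, 4, 12, 16, 24 and 48 h later (8 times). Control arrays came from mice left untreated and from mice given 100 µl of PBS, which were sampled at 4 and 12 h. There was 1 Affymetrix array for each genotype and condition, 11 per genotype, so that the 11 conditions form 11 pairs and no condition has a replicate. The labels do not give the strain, the age, the sex, the number of mice behind a liver sample or whether the genotypes were littermates. Values are log2 expression, and a difference is SOCS1-/-IFNg-/- minus IFNg-/- on that scale.

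SOCS1 is induced by interferon-gamma and shuts its receptor's signalling down again by binding JAK kinases. Mutant lines can also differ in DNA other than the targeted gene, because a gene targeted in one strain and bred into another keeps some flanking DNA of the donor strain, and unlinked segments can persist as well. The 4 genes have unrelated roles. Nnt encodes the nicotinamide nucleotide transhydrogenase of the inner mitochondrial membrane, which makes NADPH from NADH, and the C57BL/6J substrain of mice is known to carry a deletion within this gene. Csad encodes cysteine sulfinic acid decarboxylase, which makes the precursor of taurine, the amino acid that mouse liver joins to bile acids. Clec16a encodes an endosomal protein that acts in autophagy and in the removal of mitochondria. Ctse encodes cathepsin E, an aspartic protease of endosomes found mainly in stomach and immune cells.

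By RefSeq (GRCm38.p6) the 4 genes lie on 4 chromosomes, Ctse on 1, Nnt on 13, Csad on 15 and Clec16a on 16. Socs1 also lies on chromosome 16, and Clec16a is its neighbour, with 0 protein-coding genes between them. Promoter windows, from 250 bases before to 50 after a transcription start, were at hand for 2 of the 4 genes. They are shown with that of Socs1, because the mice received interferon-gamma and the windows were searched for a core of the interferon-stimulated response element. This core is a pair of GAAA half-sites 2 bases apart on either strand, and 3.44% of 32851 promoter windows of mouse genes hold it. Capitals mark matches in the windows below, which are, in order, Clec16a at chr16:10545089-10545388 (plus strand), Csad at chr15:102205003-102205302 and at chr15:102188994-102189293 (minus strand, a start each) and Socs1 at chr16:10785487-10785786 (minus strand).
Clec16a: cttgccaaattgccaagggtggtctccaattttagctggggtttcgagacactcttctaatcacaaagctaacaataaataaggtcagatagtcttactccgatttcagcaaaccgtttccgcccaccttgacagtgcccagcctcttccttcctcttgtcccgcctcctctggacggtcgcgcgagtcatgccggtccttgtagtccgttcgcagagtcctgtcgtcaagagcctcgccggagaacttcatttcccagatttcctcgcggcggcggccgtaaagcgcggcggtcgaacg
Csad, first start: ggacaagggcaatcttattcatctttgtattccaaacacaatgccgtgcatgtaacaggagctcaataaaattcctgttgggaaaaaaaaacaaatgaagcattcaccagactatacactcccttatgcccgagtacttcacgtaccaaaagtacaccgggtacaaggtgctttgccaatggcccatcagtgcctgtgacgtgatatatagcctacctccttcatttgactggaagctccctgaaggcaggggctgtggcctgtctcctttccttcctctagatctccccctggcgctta
Csad, second start: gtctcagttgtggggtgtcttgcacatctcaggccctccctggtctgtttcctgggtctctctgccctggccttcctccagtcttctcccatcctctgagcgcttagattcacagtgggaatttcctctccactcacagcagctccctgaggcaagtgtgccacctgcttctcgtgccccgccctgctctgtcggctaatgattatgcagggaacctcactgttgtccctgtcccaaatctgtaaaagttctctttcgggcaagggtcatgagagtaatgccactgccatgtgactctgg
Socs1: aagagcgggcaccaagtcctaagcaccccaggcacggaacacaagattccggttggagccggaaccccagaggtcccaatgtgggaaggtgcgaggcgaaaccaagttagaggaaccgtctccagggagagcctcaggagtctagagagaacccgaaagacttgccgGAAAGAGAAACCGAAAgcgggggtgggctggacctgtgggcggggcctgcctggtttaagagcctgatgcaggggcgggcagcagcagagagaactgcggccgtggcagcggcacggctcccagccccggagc
The Socs1 window holds 2 overlapping matches, from -83 to -74 and from -77 to -68 relative to the start, and neither the Clec16a window nor the Csad windows hold one. A match is a run of letters, not a proven site, and a window without one says nothing of sites elsewhere.

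The targeted genes were read first. Socs1 lay between 6.57 and 7.02 on the 11 SOCS1-/-IFNg-/- arrays, against 6.68 to 9.21 on the IFNg-/- arrays, where only the 1 h (7.37) and 2 h (9.21) arrays stood above 7.02. Ifng lay between 2.19 and 2.61 in SOCS1-/-IFNg-/- and between 2.18 and 2.52 in IFNg-/- livers. Arrays resembled each other closely, with a lowest median correlation of an array with the others of 0.972 across genes. The female transcript Xist was near the bottom of the scale on every array, at 3.05 to 3.42 in SOCS1-/-IFNg-/- and 2.95 to 3.47 in IFNg-/- livers, so that no array stood apart in it. As a sign of RNA quality, the difference between the 3-prime and 5-prime probe sets of Actb had a median of 0.77 in SOCS1-/-IFNg-/- and 0.83 in IFNg-/- livers and was higher in SOCS1-/-IFNg-/- in 6 of 11 pairs.

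Across all genes the genotypes were close, with a median absolute mean difference over the 11 pairs of 0.03. In limma's fit of the within-pair differences, 18 of 8251 genes (0.218%) passed an adjusted p of 0.05, 8 lower (0.097%) and 10 higher (0.121%) in SOCS1-/-IFNg-/-. All 4 genes are among these 18, which reflects their choice and adds nothing to it. By size of the mean difference they ranked 5 (Ctse), 12 (Csad), 15 (Nnt) and 204 (Clec16a) of the 8251 genes.

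**Figure D1:**
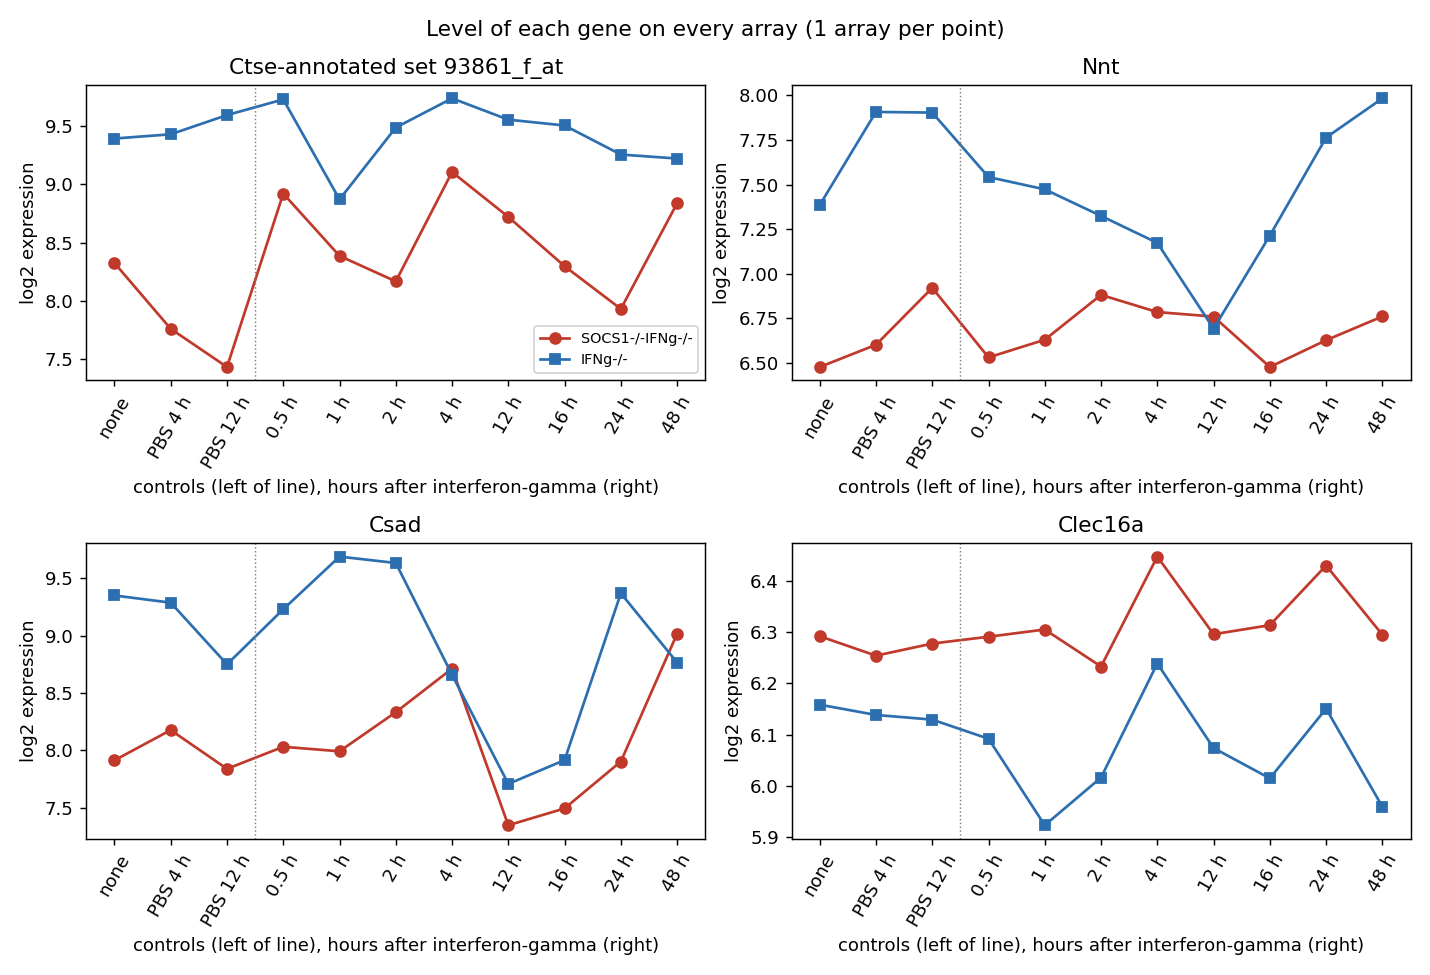
Log2 expression of the 4 genes on each of the 22 arrays, by condition, with SOCS1-/-IFNg-/- as circles and IFNg-/- as squares and controls left of the dotted line. The lines cross for Nnt at 12 h and for Csad at 4 and 48 h, and they stay apart for Clec16a and for the set annotated to Ctse.

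Nnt, the mitochondrial transhydrogenase, was lower in SOCS1-/-IFNg-/- livers in 10 of 11 pairs. In SOCS1-/-IFNg-/- livers it was 6.48 untreated, 6.60 and 6.92 at 4 and 12 h after PBS, and 6.53, 6.63, 6.88, 6.79, 6.76, 6.48, 6.63 and 6.76 at the 8 times after interferon-gamma. In IFNg-/- livers it was 7.39, then 7.91 and 7.90 after PBS, and 7.54, 7.47, 7.32, 7.17, 6.69, 7.21, 7.76 and 7.98 after interferon-gamma. The SOCS1-/-IFNg-/- values stayed within a narrow band (SD 0.15, n = 11), and the IFNg-/- values were more spread (SD 0.39, n = 11). The only overlap came from the IFNg-/- liver at 12 h, whose 6.69 lay inside the SOCS1-/-IFNg-/- range while the next lowest IFNg-/- value was 7.17.

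The 11 differences of Nnt were -0.91 untreated, -1.31 and -0.98 after PBS, and -1.01, -0.84, -0.44, -0.39, 0.07, -0.74, -1.14 and -1.22 from 0.5 to 48 h. Their mean was -0.81 ± 0.41 (SD, n = 11), which places the SOCS1-/-IFNg-/- level at 57% of the IFNg-/- level. The gap was narrow from 2 to 12 h and wide again at 24 and 48 h, and the IFNg-/- arrays moved more than the SOCS1-/-IFNg-/- arrays. Relative to their own controls, IFNg-/- arrays stood at -0.41, -0.56 and -1.04 at 2, 4 and 12 h. The SOCS1-/-IFNg-/- arrays stood at 0.22, 0.12 and 0.09, with 1 array per point. The array has 1 probe set for Nnt, and the exons it covers were not compared with the known deletion.

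Csad, the taurine enzyme, was lower in SOCS1-/-IFNg-/- livers in 9 of 11 pairs, and its difference was the least steady of the 4. SOCS1-/-IFNg-/- livers had 7.91 untreated, 8.18 and 7.84 after PBS, and 8.03, 7.99, 8.33, 8.71, 7.35, 7.49, 7.90 and 9.02 at the 8 times. IFNg-/- livers had 9.35 untreated, 9.29 and 8.75 after PBS, and 9.23, 9.69, 9.63, 8.66, 7.71, 7.91, 9.37 and 8.76. In both genotypes the lowest values fell at 12 and 16 h, while the SOCS1-/-IFNg-/- livers at 4 and 48 h were the highest of their genotype and level with IFNg-/-.

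For Csad the differences were -1.44 untreated, -1.11 and -0.91 after PBS, and -1.20, -1.70, -1.30, 0.05, -0.36, -0.42, -1.47 and 0.25 from 0.5 to 48 h. The mean was -0.87 ± 0.65 (SD, n = 11), or 54.6% of the IFNg-/- level. By phase the mean difference was -1.15 in the 3 control pairs, -1.04 in the 4 early pairs (0.5 to 4 h) and -0.50 in the 4 late pairs (12 to 48 h), with SDs of 0.27, 0.76 and 0.71. The ranges of the genotypes overlapped widely, and 9 of 11 SOCS1-/-IFNg-/- values lay inside the IFNg-/- range. Among all genes 8.45% had the same sign in at least 9 of 11 pairs.

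Clec16a, the endosomal and autophagy gene beside Socs1, was higher in SOCS1-/-IFNg-/- livers in 11 of 11 pairs by a small amount. Its level was 6.29 untreated, 6.25 and 6.28 after PBS, and 6.29, 6.31, 6.23, 6.45, 6.30, 6.31, 6.43 and 6.30 after interferon-gamma in SOCS1-/-IFNg-/- livers. The IFNg-/- livers stood at 6.16, then 6.14 and 6.13 after PBS, and 6.09, 5.92, 6.02, 6.24, 6.07, 6.01, 6.15 and 5.96. The lowest SOCS1-/-IFNg-/- value (6.233, at 2 h) fell just under the highest IFNg-/- value (6.239, at 4 h), and apart from these 2 arrays the genotypes did not overlap.

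The differences of Clec16a were 0.13 untreated, 0.12 and 0.15 after PBS, and 0.20, 0.38, 0.22, 0.21, 0.22, 0.30, 0.28 and 0.34 from 0.5 to 48 h. Their mean was 0.23 ± 0.08 (SD, n = 11), or 117.4% of the IFNg-/- level. The 3 control pairs averaged 0.13 ± 0.02 (SD), below every pair with interferon-gamma, whose early and late means were 0.25 ± 0.09 and 0.28 ± 0.05 (SD, n = 4 each). A further probe set of Clec16a lay near the bottom of the scale, with means of 2.65 in SOCS1-/-IFNg-/- and 2.57 in IFNg-/- livers. Its mean difference was 0.07 ± 0.14 (SD, n = 11), higher in 8 of 11 pairs. Among all genes 0.436% had the same sign in all 11 pairs, and 2.08% in at least 10.

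**Figure D2:**
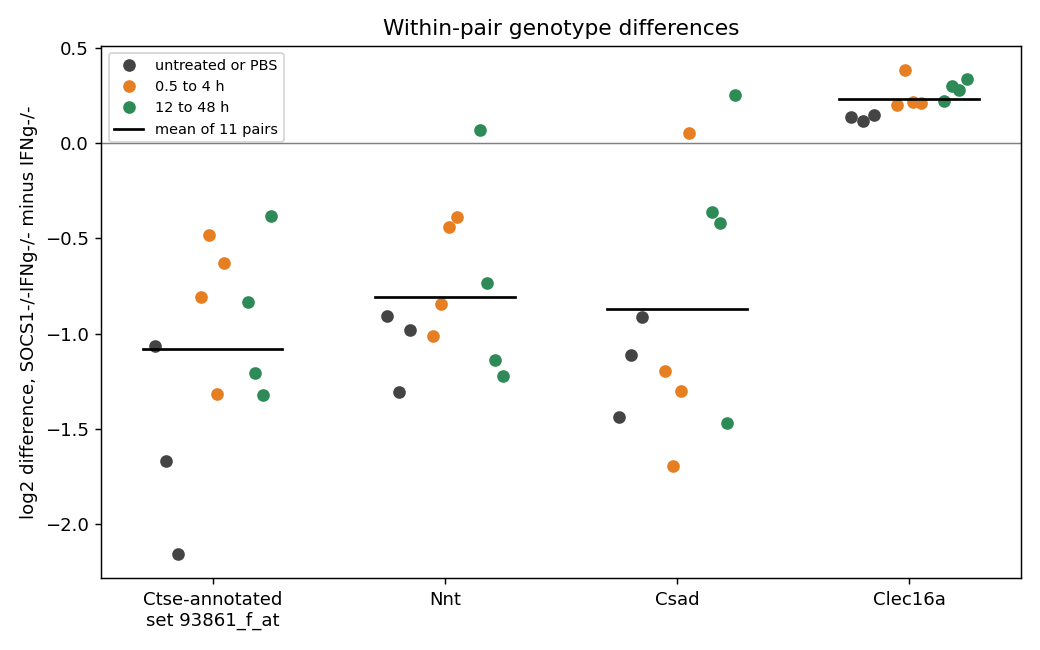
Log2 difference, SOCS1-/-IFNg-/- minus IFNg-/-, of each gene in the 11 pairs, with controls, early and late times in separate colours and a bar at the mean. The means are -1.08, -0.81, -0.87 and 0.23 from left to right, and points cross 0 for Nnt (1 pair) and Csad (2 pairs).

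The values listed under Ctse could not be tied to the cathepsin E transcript. The probe table assigns 3 probe sets to Ctse. A pair of them, here the family set and the incomplete set, were built from 1 shared source sequence. Their name suffixes are those by which Affymetrix marks probes that match a family of similar sequences and sets with fewer unique probes than usual. The third, here the plain set, was built from another source sequence and has the suffix without such a mark. The rule takes the family set, which has the highest mean, so the difference described here belongs to that set, which is called the Ctse-annotated set.

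On the family set, SOCS1-/-IFNg-/- livers had 8.33 untreated, 7.76 and 7.44 after PBS, and 8.92, 8.39, 8.17, 9.11, 8.72, 8.30, 7.93 and 8.84 after interferon-gamma. IFNg-/- livers had 9.39 untreated, 9.43 and 9.59 after PBS, and 9.73, 8.87, 9.49, 9.74, 9.55, 9.50, 9.25 and 9.22. Here the SOCS1-/-IFNg-/- arrays varied most (SD 0.52 against 0.25, n = 11 each), with their lowest values after PBS. The ranges overlapped through the SOCS1-/-IFNg-/- arrays at 0.5 and 4 h and the IFNg-/- array at 1 h.

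The differences of the family set were -1.07 untreated, -1.67 and -2.16 after PBS, and -0.81, -0.48, -1.32, -0.63, -0.83, -1.21, -1.32 and -0.38 from 0.5 to 48 h. All 11 were below 0, with a mean of -1.08 ± 0.53 (SD, n = 11), or 47.3% of the IFNg-/- level. The incomplete set gave -1.05 ± 0.50 (SD, n = 11) and moved with it across the 22 arrays (r = 0.985). As the 2 sets share a source sequence, this is no independent reading. Which transcripts these sets detect was not established here and may not be cathepsin E, so the chromosome, the neighbours and the cathepsin list given for Ctse follow the annotation only.

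The plain set lay between 3.95 and 4.29 in SOCS1-/-IFNg-/- and between 3.97 and 4.24 in IFNg-/- livers, far below the median gene level of 6.05. Its mean difference was 0.07 ± 0.13 (SD, n = 11), above 0 in 8 of 11 pairs, which is the opposite sign and smaller than its spread. Across the 22 arrays it correlated with the family set at r = -0.32. The steady genotype difference was thus seen on the sets of the shared source and not on the plain Ctse set.

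**Figure D3:**
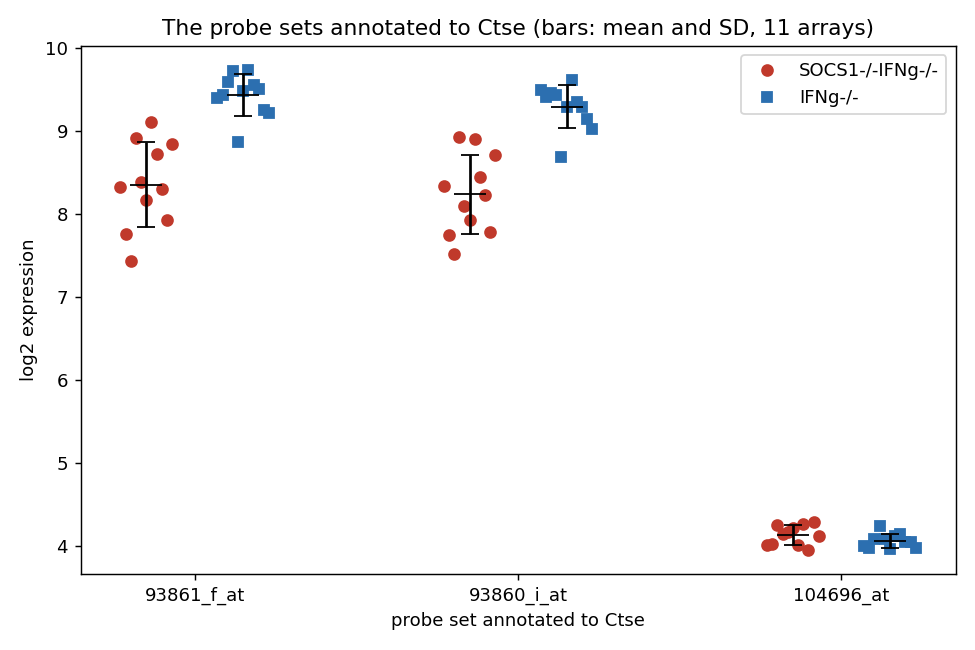
Log2 expression on the 3 probe sets annotated to Ctse, with SOCS1-/-IFNg-/- left of IFNg-/- for each set and bars for mean and SD over 11 arrays. The family (suffix _f_at) and incomplete (suffix _i_at) sets have mean differences of -1.08 and -1.05, and the genotypes lie together near 4 on the plain set (suffix _at).

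Whether these genes changed after interferon-gamma is a question that their choice did not use, since it compares times within both genotypes together. The error of the fit, however, rests largely on the spread of the 11 within-pair differences from which the genes were chosen. Each time was set against the 6 control arrays in limma's additive fit of condition and genotype, with Benjamini-Hochberg adjustment over 8251 genes. None of the 4 genes passed at any of the 8 times or in the F test over all times. In that F test 365 genes passed (4.42%), among them 11 of 11 measured genes of a list of known interferon-gamma targets, such as Irf1 and Gbp2. That list was chosen with earlier results of these data known, so its count is a description and no independent check. At the 8 times the share of genes that passed was 0.0%, 0.158%, 1.61%, 4.56%, 1.02%, 0.206%, 0.0485% and 0.0%. The fit takes the genotypes as replicates of a time, so a gene that differs unevenly between them, as Csad does, has a large error.

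Csad came nearest to a change over all times, with an F test p of 0.0110 and adjusted p = 0.12 by limma. By limma it differed from controls by -1.03 ± 0.31 (SE) at 12 h (adjusted p = 0.151) and by -0.85 ± 0.31 at 16 h (adjusted p = 0.453), and by between 0.08 and 0.43 at the other times. Relative to its own controls Csad stood at -0.63 in SOCS1-/-IFNg-/- and -1.42 in IFNg-/- livers at 12 h, and at -0.48 in SOCS1-/-IFNg-/- and -1.21 in IFNg-/- livers at 16 h. Against the PBS 12 h arrays alone the 12 h difference was -0.77 ± 0.38 (SE, limma adjusted p = 0.746). With PBS of the same time as control 0.109% of genes passed at 12 h and 1.36% at 4 h, and again none of the 4.

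The Ctse-annotated set stood 0.76 ± 0.25 (SE) above controls at 4 h (adjusted p = 0.104 by limma) and 0.67 ± 0.25 at 0.5 h (adjusted p = 0.897). These differences came from SOCS1-/-IFNg-/- livers, which stood 1.26 and 1.08 above their own controls at 4 and 0.5 h, against 0.26 and 0.26 in IFNg-/- livers. All 8 SOCS1-/-IFNg-/- arrays with interferon-gamma were above the mean of their controls, by 0.09 to 1.26. The IFNg-/- arrays ranged from -0.60 to 0.26 around theirs. The SOCS1-/-IFNg-/- controls were uneven, at 8.33 untreated and at 7.76 and 7.44 after PBS. The SOCS1-/-IFNg-/- arrays at 2, 16 and 24 h (8.17, 8.30 and 7.93) lay below the untreated one. Whether the genotypes respond differently was not tested.

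Nnt differed from the pooled controls by at most -0.47 ± 0.21 (SE), at 12 h (adjusted p = 0.375 by limma). At that time SOCS1-/-IFNg-/- stood at 0.09 and IFNg-/- at -1.04 relative to their own controls. Against the PBS 12 h arrays alone the 12 h difference of Nnt was -0.69 ± 0.25 (SE, limma adjusted p = 0.506). Clec16a ranged from -0.09 at 1 h to 0.13 ± 0.06 (SE) at 4 h (limma adjusted p = 0.262). For PBS against untreated livers limma called 1 gene (0.0121%) and none of the 4, with differences of 0.40 ± 0.21 for Nnt, -0.12 ± 0.34 for Csad, -0.03 ± 0.07 for Clec16a and -0.30 ± 0.26 for the Ctse-annotated set (SE, adjusted p from 0.469 to 0.913).

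**Figure D4:**
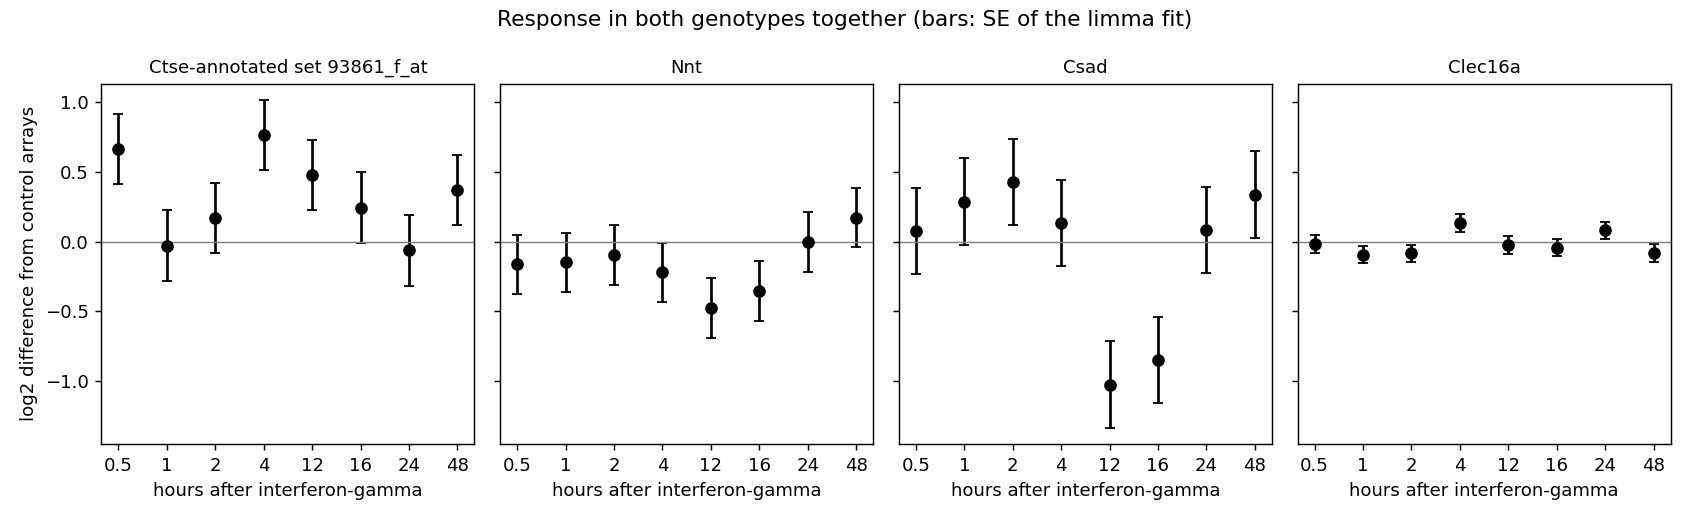
Log2 difference of each time from the 6 control arrays, both genotypes together, with SE bars from limma, on 1 shared scale for the 4 genes. Csad lies lowest at 12 and 16 h (-1.03 and -0.85), the Ctse-annotated set is highest at 4 h (0.76), and Clec16a stays within 0.13 of 0.

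The genes next to each member on its chromosome were described for the genotype contrast. At a background share of 0.218%, few or no calls would be found among 20 genes. DNA can also differ without a change in liver RNA, so whether a stretch of DNA differed was not tested. For each gene the 10 nearest measured genes on either side were taken in RefSeq order. Of the 20 genes around Socs1, the 19 other than Clec16a held 0 calls in the genotype contrast (background 0.218%). They ranged from -0.07 (Rsl1d1) to 0.17 (Litaf, an endosomal protein induced by lipopolysaccharide), and the median of the 20 was 0.00. Litaf was higher in 9 of 11 pairs (0.17 ± 0.07 SE, adjusted p = 0.564 by limma) and was not called.

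Other genes near Socs1 lay closer to 0. Ciita, the transactivator that switches on MHC class II genes and lies beyond Clec16a, differed by 0.07 ± 0.04 (SE) and was higher in 7 of 11 pairs. Nubp1, a factor for iron-sulfur proteins, differed by 0.04 ± 0.05 and the sperm protamine gene Prm1 by 0.01 ± 0.05. Tnp2, the nearest measured gene on the other side of Socs1, differed by -0.05 ± 0.04. None of these 4 was called (adjusted p from 0.752 to 0.986). Socs1 itself differed by -0.32 ± 0.17 (SE, limma adjusted p = 0.655), with the 2 h pair at -2.47.

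Around Nnt 0 of 20 neighbours were called, with differences from -0.06 (Itga2) to 0.06 (BC147527). The nearest were Fgf10 and 4833420G17Rik, at 0.00 ± 0.05 and 0.01 ± 0.05 (SE). Around Csad 0 of 20 were called. The keratins Krt18 and Krt8 differed by 0.30 ± 0.19 and 0.21 ± 0.09 and the transcription factor Sp1 by -0.23 ± 0.08, which was lower in 8 of 11 pairs (adjusted p = 0.396 by limma). Next to Csad itself Igfbp6 and Zfp740 stood at -0.02 ± 0.04 and 0.00 ± 0.03. Around the annotated locus of Ctse 0 of 20 were called, from -0.11 (Pigr, which carries antibodies into bile) to 0.07 (Pfkfb2), and around Ifng, whose locus is targeted in both genotypes, 0 of 20. The medians of these neighbourhoods lay between -0.02 and 0.00, and the median of all genes was also 0.00.

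**Figure D5:**
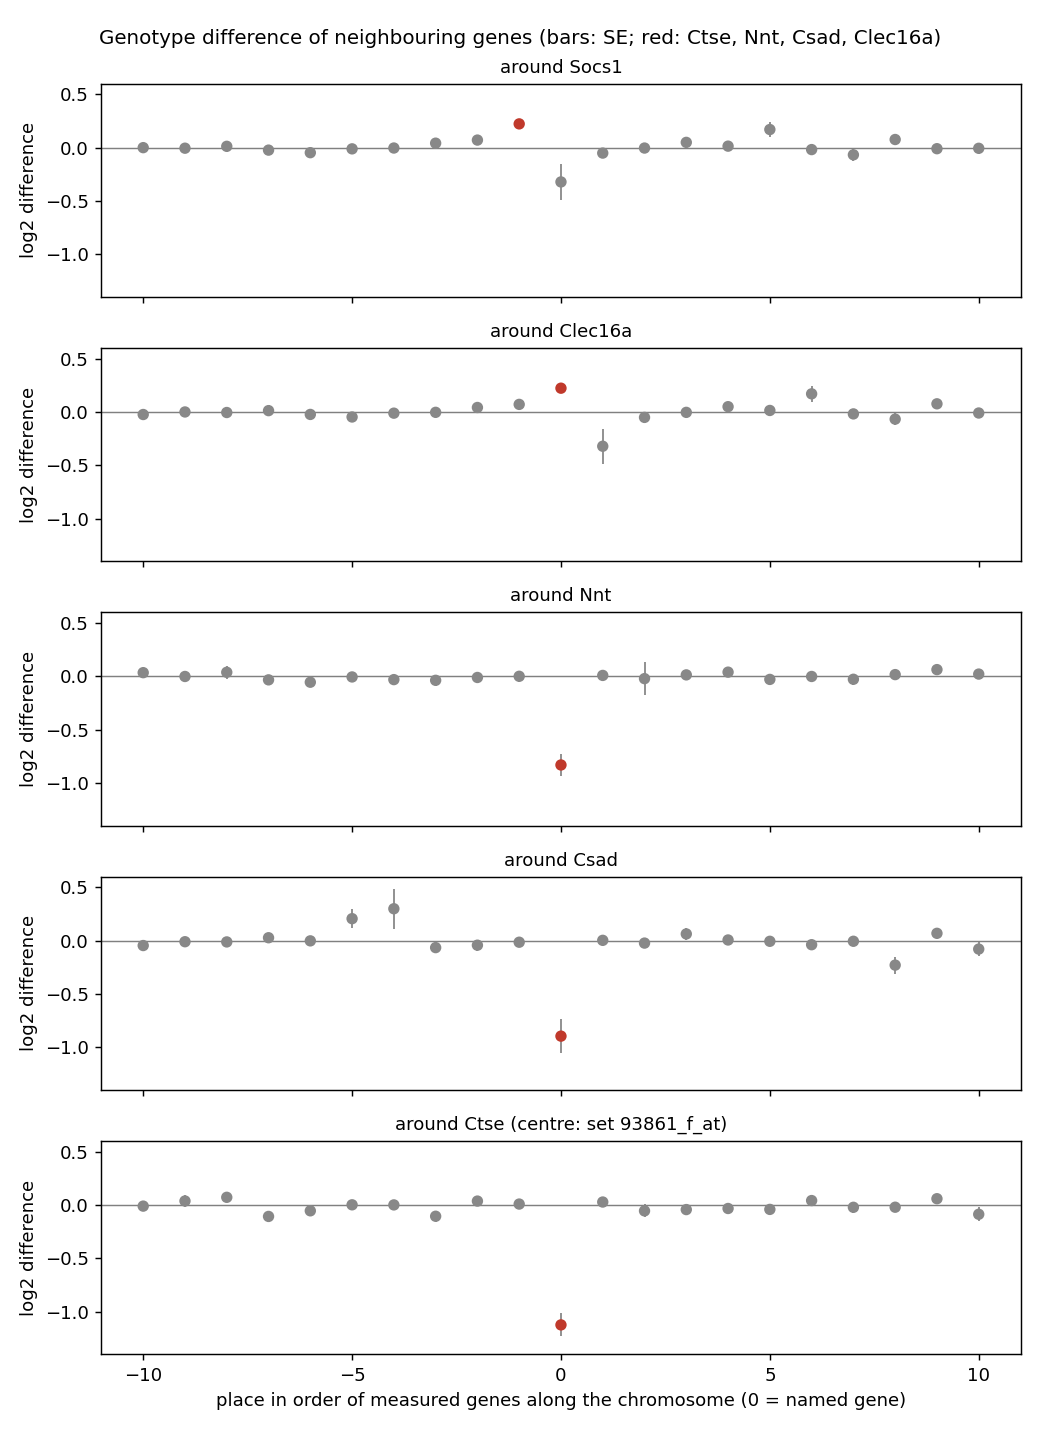
Fitted log2 genotype difference (SOCS1-/-IFNg-/- minus IFNg-/-) with SE of the 10 measured genes on each side of Socs1, Clec16a, Nnt, Csad and Ctse in chromosome order, with the 4 described genes in red. The red points of Nnt, Csad and the Ctse-annotated set lie below all their neighbours, whereas near Clec16a Socs1 lies at -0.32 and Litaf at 0.17.

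SOCS1 loss and any other DNA that differs between these lines go together on every pair, so the design cannot tell them apart for any of the 4 genes. Measured beside this were the position of Clec16a next to Socs1 and a difference in untreated livers for all 4 genes (-1.07, -0.91, -1.44 and 0.13 for the Ctse-annotated set, Nnt, Csad and Clec16a). Each untreated value rests on 1 array per genotype, in genes chosen for such a difference. Mean differences in control, early and late pairs were -1.63, -0.81 and -0.94 (Ctse-annotated set) and -1.07, -0.67 and -0.76 (Nnt). Those of Csad were -1.15, -1.04 and -0.50, and those of Clec16a 0.13, 0.25 and 0.28. Fewer cells of a type and less RNA per cell cannot be told apart in these whole-liver samples either.

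Lists of genes with related roles were described beside each gene. Over all genes 0.218% were called in the genotype contrast and 4.42% in the F test over times. At such shares a list of this size would hold few or no calls, so its counts are a description only. On a list of cathepsins and their inhibitors 19 of 24 genes were measured, with a median genotype difference of 0.04, and 0 of the 18 other than the Ctse-annotated set were called. Ctss, the cathepsin that trims the invariant chain of MHC class II, differed by 0.31 ± 0.06 (SE, adjusted p = 0.074 by limma) and Ctsc, which activates granule proteases, by 0.24 ± 0.06 (adjusted p = 0.154), each higher in 10 of 11 pairs. In the F test over times Ctsd and Ctsf passed (2 of 19).

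On the list of mitochondrial NADPH and peroxide defence 17 of 23 genes were measured, with a median of 0.01. Of the 16 other than Nnt 0 were called (background 0.218%). The highest difference on the list was 0.13. Among its genes 1, Gclc of glutathione synthesis, passed the F test over times (background 4.42%). On the taurine and sulfur amino acid list 16 of 22 were measured with a median of 0.01, 0 of the 15 other than Csad were called, and Ahcy, which hydrolyses S-adenosylhomocysteine, and Gclc passed the F test over times. On the endosome, autophagy and mitophagy list 22 of 29 were measured with a median of -0.01, 0 of the 21 other than Clec16a were called, and the autophagy kinase Ulk1 passed the F test over times. The interferon-gamma target list, for comparison, had a median genotype difference of 0.46 and 0 of 11 genes called in that contrast. All 11 lay above 0, from 0.20 to 1.00, and their summed level was higher in SOCS1-/-IFNg-/- in 9 of 11 pairs.

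Markers of other cells were compared between the genotypes because Ctse is known from immune and red blood cells and from stomach. Of 7 measured B cell markers 0 were called (background 0.218%). The log2 of their summed linear levels ranged from 8.74 to 8.96 in SOCS1-/-IFNg-/- and from 8.72 to 8.95 in IFNg-/- livers. Of 6 erythroid markers 1 was called, Alas2 of heme synthesis, which differed by -0.26 ± 0.05 (SE, adjusted p = 0.0453 by limma). The list as a whole was not lower to that extent, with a median difference of -0.02, 4 markers below 0 and 2 above. Hba-a1 differed by 0.15 ± 0.13 (SE), and Klf1, Ank1, Slc4a1 and Epb42 lay between -0.06 and 0.01. The log2 of the summed linear levels of the 6 erythroid markers ranged from 9.60 to 10.2 in SOCS1-/-IFNg-/- and from 9.70 to 10.4 in IFNg-/- livers. For 6 markers of biliary and gastric epithelium 0 were called and this log2 of the sum ranged from 8.84 to 9.09 in SOCS1-/-IFNg-/- and from 8.89 to 9.09 in IFNg-/- livers, with the gastric marker Tff2 at means of 3.60 and 3.63 in SOCS1-/-IFNg-/- and IFNg-/- livers. Their part in the values of the Ctse-annotated set was not tested.

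The other lists held no call, beside a background of 0.218%. Hepatocyte (7 measured), Kupffer cell and macrophage (7), T and NK cell (6), neutrophil (7), dendritic cell (5) and endothelial and stellate (6) lists had 0 genes called in the genotype contrast. At that share lists of this size would hold few or no calls. Among neutrophil markers S100a8 differed by 0.44 ± 0.14 (SE) and S100a9 by 0.30 ± 0.11, each higher in 10 of 11 pairs (adjusted p = 0.316 and 0.434 by limma). The other neutrophil markers lay between -0.04 and 0.03. The macrophage marker Lyz2 differed by 0.23 ± 0.09 (SE), higher in 9 of 11 pairs (adjusted p = 0.481 by limma). On its list 5 of 7 markers lay below 0. The hepatocyte markers Alb and Apoa1 were at 13.3 on average in SOCS1-/-IFNg-/- and in IFNg-/- livers, near the top of the scale. The hepatocyte list had a median difference of -0.08, with 5 of its 7 measured genes below 0. Lowest was Hnf4a at -0.19 ± 0.09 (SE), lower in 8 of 11 pairs, followed by Tat at -0.18 ± 0.08 (adjusted p = 0.621 and 0.578 by limma).

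The genes most like each member were ranked by Pearson's r of log2 values over the 22 arrays, as a description in which the genotype difference has a large share. Most like the Ctse-annotated set was Camk2b, a subunit of calcium/calmodulin-dependent kinase (r = 0.835), then Ggcx (0.731) and Dpp7 (0.689), and least like it were Cyp4a14 (-0.701) and Cenpv (-0.634). With each genotype's mean taken out, r with Camk2b was 0.587 and with Cyp4a14 -0.697.

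Nnt was most like Sh3bgrl2 (0.741), Csad (0.711) and Kcnh1 (0.659), and least like Clec16a (-0.695) and Igkv6-23 (-0.670). Without the genotype means the r of Nnt with Csad was 0.450 and with Clec16a -0.05. Csad was most like the peroxisomal thiolase Acaa1b (0.786), the fatty acid hydroxylase Cyp4a12b (0.768) and Kcnh1 (0.762), and least like the MHC class II chaperone subunit H2-DMb1 (-0.767) and St6gal1 (-0.754). The likeness of Csad to Acaa1b was 0.729 within genotypes. Clec16a was most like the RNA export factor Alyref (0.806), Ptpa (0.719) and Snd1 (0.718), and least like Ctnna2 (-0.755) and Arid2 (-0.718).

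Among the 18 genes called in the genotype contrast, Cyp4a12b was the one besides the Ctse-annotated set that was lower in SOCS1-/-IFNg-/- in 11 of 11 pairs (fitted difference -0.51 ± 0.05 SE), and it is known as a male-specific liver gene. Alyref was higher in 11 of 11 pairs, by 0.25 ± 0.04 (SE). Between the 4 genes themselves the correlations within genotypes ran from -0.164 (the Ctse-annotated set with Nnt) to 0.450 (Nnt with Csad).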

How the data were processed

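Liver RNA was hybridised to 22 Affymetrix mouse arrays, 1 per genotype and condition. The deposited table holds log2 expression values that the authors had already normalized; the submitters' processing notes name affy, and the normalization method is not given in the sources used here. Array medians lay between 5.64 and 5.71, and 0 columns were left unused. Of 12488 probe sets, 66 controls, 396 with several symbols and 1193 with none were left out, and the other 10833 gave 8251 genes, each by its probe set with the highest mean. Signal depth is not known for such values, and the number of arrays limits precision.

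The members and gene lists were chosen with earlier results of these data known. Genotypes were compared by limma (3.58.1 in R 4.3.3) on the 11 within-pair differences, as the mean of control, early and late phases. Responses came from an additive limma fit of condition and genotype on the 22 arrays, with the 6 controls together. The genotypes thus stand in for replicates. The spread behind a p-value mixes uneven genotype differences over time, differences among the control conditions and variation between single arrays, which may be technical. Calls used a Benjamini-Hochberg adjusted p under 0.05, and the fits were tested on simulated data. Named genes were the 4 members, Socs1, Ifng, the 3 most and 2 least like genes and set neighbours of each locus. Genes called on the lists and leading markers were also named. Ctss, Ctsc, Sp1, Krt8, Krt18, the ends of neighbour ranges and Xist were added after their values were seen. So were Cyp4a12b and Alyref among the called genes, and the further hepatocyte, erythroid, neutrophil and macrophage markers. Alternatives covered normalization, probe set, filter, weights, controls and each pair left out. The comparison with PBS of the same time was chosen after seeing the data. Promoter windows were searched for 2 motifs, of which 1 is not reported here.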

Additional observations from a re-analysis of the deposited data

How the results depend on the processing

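Arrays were paired by shared condition, since the labels carry no replicate numbers. The 18 genes called between genotypes became 8 in an unpaired fit, 71 with array weights and 7 (without the PBS 12 h pair) to 31 (without the 48 h pair) with 1 pair left out. The mean differences of the 4 genes kept their sign with each pair left out, but the plain Ctse set gave 0.0703 and the further Clec16a set 0.0731. Counts of the response moved as follows, with the cause not tested. With array weights 38, 376, 57 and 10 genes passed at 1, 2, 4 and 16 h, and 122 for PBS against untreated. Without the untreated arrays 235, 44, 9 and 4 passed at 4, 12, 16 and 48 h. Without the PBS 12 h arrays 87, 247, 128, 50 and 22 passed at 2, 4, 12, 16 and 24 h. Among genes of mean log2 of at least 6, 4 passed at 1 h and 84 at 2 h. Trend and robust settings gave 7 at 1 h, quantile normalization 28 at 16 h, and no genotype term 39 and 9 at 12 and 16 h. With 1 pair left out the counts ran from 0 to 1 (0.5 h), 8 to 32 (1 h), 107 to 231 (2 h), 331 to 401 (4 h), 37 to 147 (12 h), 8 to 42 (16 h), 4 to 8 (24 h), 0 to 0 (48 h) and 207 to 407 (F test). None of the 4 genes was called for a response in any of these settings. At 0.5 and 48 h, where limma called 0 genes, 413 and 497 had an unadjusted p under 0.05.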
